A study of Arabidopsis thaliana with 12 samples.

Results

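The 42 nuclear genes described here encode the light-harvesting antenna proteins (LHCA, LHCB) and the nuclear-encoded core and peripheral subunits of photosystem I (PSA) and photosystem II (PSB) of Arabidopsis thaliana. They were chosen by name from the families and by no cutoff on a measured value, though earlier results of these data were known. They are 42 of the 23174 genes in the deposited count table. All 42 passed the filter on low counts, which kept 16636 genes. RNA was sequenced from rosette leaves of ecotype Col-0, from plants grown for 3 weeks at 23 °C, in 4 groups of 3 samples. The groups were wild type (WT) and the mutant atcyp18-2, each without heat ("control" in the labels) and after heat stress of 1 h at 47 °C. The mutant is named for AtCYP18-2, a cyclophilin, which is a peptidyl-prolyl isomerase. The labels name no second allele or complemented line and no control that stayed at 23 °C over that hour, and heat and the passing of time cannot be told apart. Whether the 3 samples of a group came from separate plants is not stated, so the spread behind each p-value may be technical.

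Photosystem II takes electrons from water and photosystem I passes them on to ferredoxin, and both receive excitation energy from chlorophyll-binding antenna proteins. The reaction centre proteins are encoded in the chloroplast genome, whereas the antenna and most peripheral subunits are encoded in the nucleus, made in the cytosol and imported. Nuclear photosystem genes are known for their high expression in green leaves, their control by light and the circadian clock, and the presence of several copies of many of them. In bulk leaf RNA, fewer cells with a transcript and less transcript per cell cannot be told apart.

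Counting 1 transcript per gene, library sizes ran from 9075387 to 12493977 reads, and nuclear genes gave 2572364 to 4348395 reads. Chloroplast transcripts took 59.9 to 70.2% of all reads. AtCYP18-2 (AT2G36130) had 62 to 99 reads in WT without heat and 11 to 13 in atcyp18-2 without heat, and 48 to 65 against 12 to 34 after heat, so the counts follow the genotype labels. In edgeR's quasi-likelihood test its log2 difference between atcyp18-2 and WT was -2.55 ± 0.25 (adjusted p = 0.00348) without heat. After heat it was smaller, at -1.13 ± 0.24 (adjusted p = 0.105). Within atcyp18-2 the gene was at 0.951 to 1.05 CPM without heat and 2.14 to 4.13 CPM after it. Of 8 markers of other cell types (guard cell, epidermis, vascular tissue, root and trichome), 0 were at 0 reads in any library, and their summed level was 112 to 149 CPM in unheated and 90.3 to 109 CPM in heated WT, and 107 to 145 and 94.9 to 141 CPM in atcyp18-2. All CPM values are counts scaled to library size multiplied by the TMM factor of the library. These factors ran from 0.669 in replicate 1 of heated atcyp18-2 to 1.51 in replicate 2 of WT without heat. They separated by treatment, at 1.08 to 1.51 in the unheated libraries and 0.669 to 1.02 in the heated ones. Comparisons of CPM between heated and unheated libraries therefore depend on this scaling. The root gene PYK10 (AT3G09260) was at 22.8 to 53.6 CPM in WT without heat and 9.35 to 20.9 CPM in heated WT. The guard cell gene KAT1 (AT5G46240) ranged over 3.73 to 4.12 CPM and 0.901 to 2.59 CPM in the same groups, and the epidermis gene ATML1 over 26 to 37 CPM and 19.8 to 25.2 CPM. The other markers, MYB60, FAMA, PDF1, SUC2 and GL2, overlapped between these groups. In atcyp18-2, PYK10, KAT1 and ATML1 were also lower in all heated libraries. GL2 was higher there, at 4.06 to 5.5 CPM without heat and 6.09 to 6.48 CPM after it, and the other markers overlapped. The part of cell type make-up in the values below was not tested.

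The results turn on differences between closely related copies, above all the 5 LHCB1 genes, which encode the most abundant antenna protein of photosystem II. In RefSeq's annotation of TAIR10.1, LHCB1.2, LHCB1.1 and LHCB1.3 lie next to each other on chromosome 1 (10472280 to 10473502, 10474656 to 10475969 and 10477885 to 10479114). LHCB1.5 and LHCB1.4 lie on chromosome 2 (14522524 to 14523568 on the minus strand and 14524607 to 14525918 on the plus strand), head to head with 1038 bases between their starts. The counts name no genome build, and positions and sequences were found by locus identifier. The coding sequences of LHCB1.1, LHCB1.2 and LHCB1.3 were 95.6 to 96.4% identical to each other, those of LHCB1.4 and LHCB1.5 91.4%, and pairs across the 2 groups 86.8 to 90.4%. The last 75 coding bases before the stop codon are shown 5′ to 3′ because they let the copies be told apart by eye, with the 12 positions at which the 5 copies are not all alike in capitals.

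LHCB1.1: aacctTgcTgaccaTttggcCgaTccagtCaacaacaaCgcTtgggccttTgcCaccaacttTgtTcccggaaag
LHCB1.2: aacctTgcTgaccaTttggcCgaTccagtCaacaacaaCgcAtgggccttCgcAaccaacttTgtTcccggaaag
LHCB1.3: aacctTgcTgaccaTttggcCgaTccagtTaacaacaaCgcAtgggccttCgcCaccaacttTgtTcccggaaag
LHCB1.4: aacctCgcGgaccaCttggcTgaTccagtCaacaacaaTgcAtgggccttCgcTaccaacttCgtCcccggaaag
LHCB1.5: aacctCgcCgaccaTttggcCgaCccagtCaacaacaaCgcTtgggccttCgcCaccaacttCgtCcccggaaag

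Per kilobase of transcript, the levels in WT without heat ranged from 10.4 CPM per kilobase for LHCB4.3 (AT2G40100) to 4733 CPM per kilobase for LHCB1.3 (AT1G29930). LHCB1.1 (AT1G29920) followed with 1912, LHCB1.5 (AT2G34420) with 1274 and PSBR (AT1G79040) with 1207 CPM per kilobase. The lowest levels belonged to LHCA6 (AT1G19150), LHCA5 (AT1G45474) and LHCB4.3, at 28.3, 48.6 and 10.4 CPM per kilobase. LHCA5 and LHCA6 encode antenna proteins known for joining photosystem I to the chloroplast NDH complex. Of the 41 pairs of neighbours in this order, 37 had ranges over the 3 libraries that overlapped, so most of the order was not resolved. The 4 pairs without overlap were LHCB1.3 with LHCB1.1, PSAD1 with PSAE2, LHCA5 with LHCA6 and LHCA6 with LHCB4.3.

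After heat, some antenna genes of both photosystems and some photosystem subunits stood higher relative to the middle of all transcripts, while 0 members stood lower in edgeR's quasi-likelihood test. With TMM scaling, which sets the middle of all genes near 0, 12 of the 42 members were called higher in WT at an adjusted p below 0.05 and 0 lower, beside 13.2% of all 16636 genes called higher and 10.3% lower. In atcyp18-2, 17 members were called higher and 0 lower, beside 16.9% and 15.3% of all genes. Those called were 7 of the 20 LHC genes, 2 of the 12 PSA genes and 3 of the 10 PSB genes in WT, and 10, 4 and 3 of them in atcyp18-2. The antenna genes with the highest log2 fold changes in WT were LHCB1.5, LHCB1.2, LHCA4 and LHCB2.2, and the photosystem subunit called with the highest one was PSAD2. At an unadjusted p below 0.05, 21 members were higher and 0 lower in WT, and 22 and 0 in atcyp18-2. In either direction, 5941 of all 16636 genes passed that limit in WT and 7068 in atcyp18-2. DESeq2 called 11 higher and 0 lower in each genotype, leaving out LHCB2.1 in WT and LHCA2, LHCB3, LHCB6, PSAD1, PSAE2 and PSAO in atcyp18-2. Of the 18680 genes tested by DESeq2, 1919 were called higher and 2073 lower in WT, and 2216 and 3130 in atcyp18-2. The median log2 fold change of the members was 0.48 in WT and 0.48 in atcyp18-2, against -0.02 and -0.01 over all genes. All 12 members called in WT were among the 17 called in atcyp18-2, which is 70.6% of the latter. The other 5 were LHCA2, LHCB3, LHCB6, PSAD1 and PSAE2. All 3 heated libraries were above all 3 unheated ones in CPM for 14 members in WT and 24 in atcyp18-2, beside 19% and 22.5% of all genes. The counts of called members rest on single libraries. In WT 5 members were higher without replicate 1 or without replicate 2 of unheated WT, 5 and 4 without replicates 1 and 2 of heated WT, and 19 without replicate 3 of unheated WT. In atcyp18-2 the count was 10, 11 and 11 without replicates 1, 2 and 3 of the unheated mutant, and 9 without replicate 1 or replicate 3 of the heated one. LHCB1.5, LHCB2.2, PSAD2 and PSBO2 were called in WT whichever of the 12 libraries was left out, and in atcyp18-2 these 4 and LHCA1, LHCA3, LHCA4, LHCB1.2 and PSBQ1.

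The direction of these changes depends on the scaling. When reads were scaled by library totals, which include the chloroplast transcripts, the median of all genes moved to -0.77 in WT and -0.76 in atcyp18-2, with 4.8% of genes higher and 45.1% lower in WT and 6.07% and 44.5% in atcyp18-2. On that scale 1 member was called higher and 14 lower in WT, with a median of -0.27, and 2 higher and 15 lower in atcyp18-2, with a median of -0.29. The members called higher on both scales were LHCB1.5 in WT, and LHCB1.5 and LHCA4 in atcyp18-2. LHCB1.5 had a log2 fold change of 0.65 in WT and 0.86 in atcyp18-2 with library totals, and LHCA4 one of 0.28 in atcyp18-2. With TMM scaling over nuclear genes alone, 12 members were called higher in WT and 16 in atcyp18-2. Their medians there were 0.47 and 0.45. The part of chloroplast transcripts in the shift with library totals was not tested. The changes and CPM values given below are with TMM scaling and so are relative to the middle of all genes.

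**Figure D1:**
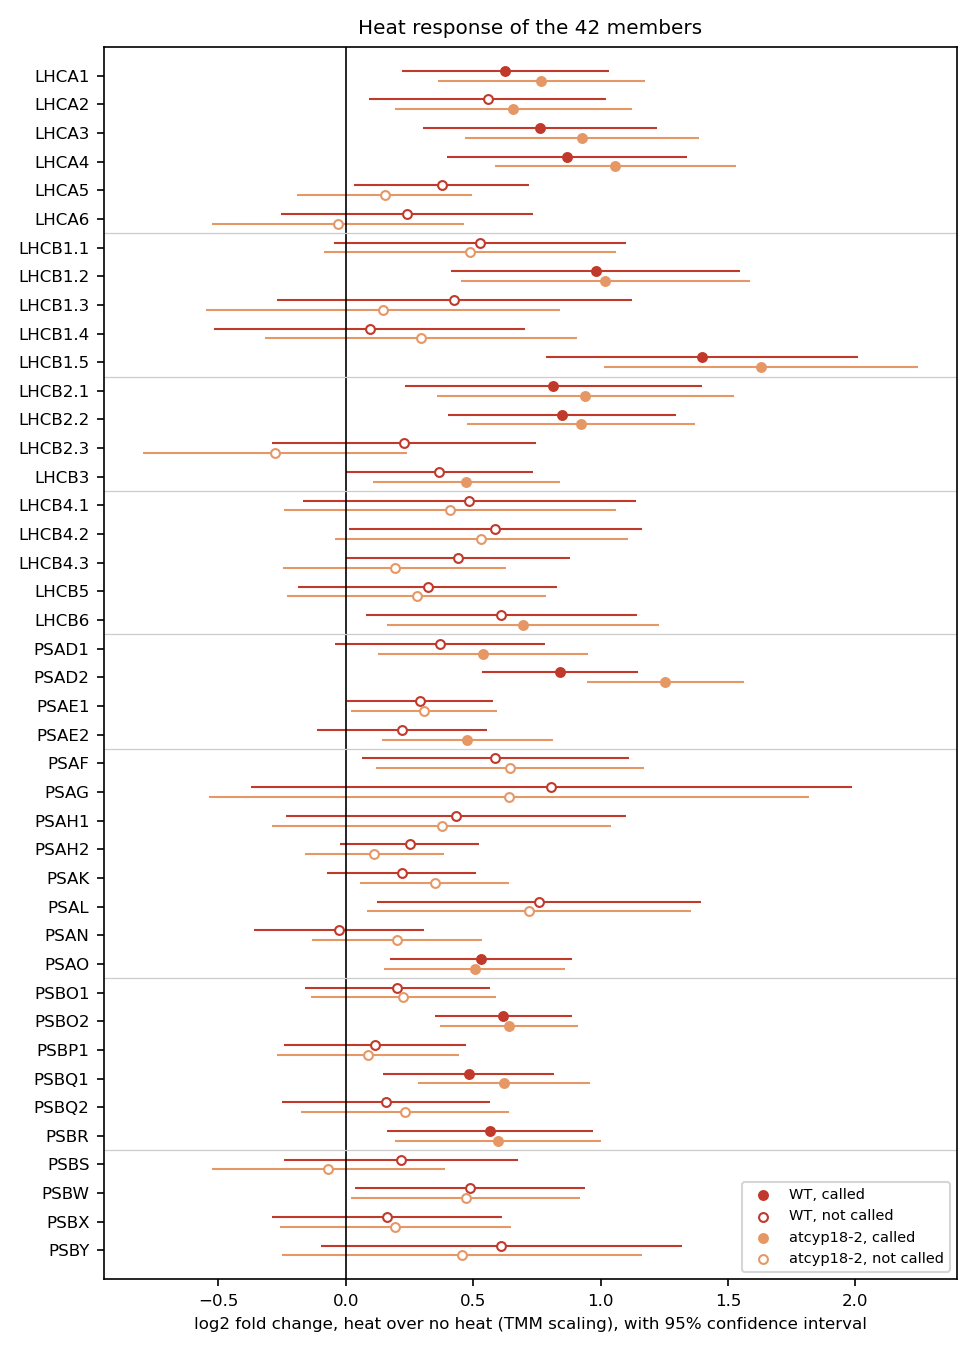
Log2 fold change of heat over no heat for each of the 42 members, grouped by family, in WT (red) and atcyp18-2 (orange), with TMM scaling and 95% confidence intervals; filled points passed an adjusted p below 0.05. LHCB1.5 stands farthest right in both genotypes, at 1.396 and 1.63, and most points lie right of 0, whereas with library totals the members' medians were -0.27 and -0.29.

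The libraries of a group differed among themselves in a way that touched most members. Over genes other than the members, a single component of the differences within groups held 53.9% of their variance. Its score was negative in 5 libraries (replicates 1 and 2 of WT without heat, 3 of heated WT, 1 of atcyp18-2 without heat and 2 of heated atcyp18-2) and positive in 7. In all 4 groups, 33 of the 42 members were lower where the score was negative, beside 19.9% of all genes, and 5 were higher, beside 18.3%. The 33 include all 20 LHC genes. PSAG (AT1G55670), a small membrane subunit of photosystem I, differed most, with 0.342 to 0.41 times the level of the other libraries of its group. The 5 higher ones were PSAE2 (AT2G20260), PSAN (AT5G64040), PSBO2 (AT3G50820), PSBP1 (AT1G06680) and PSBQ2 (AT4G05180), and PSAD2 (AT1G03130), PSAE1 (AT4G28750), PSAH2 (AT1G52230) and PSAK (AT1G30380) were neither. Chloroplast transcripts took 59.9 to 62.6% of reads in the 5 libraries and 63.7 to 70.2% in the other 7, and the part of this in the members' levels was not tested. With the score as a covariate, 37 members were called higher after heat and 0 lower in WT, beside 23.2% and 21.7% of all genes, and 34 higher and 1 lower in atcyp18-2, beside 26.4% and 25.5%. The lower one was LHCB2.3. Since the score comes from the same libraries, the errors and p-values of this model may be too small. The score is centred within each group, so the model narrows the errors and does not correct differences between groups. The members' median heat response was 0.49 in WT and 0.47 in atcyp18-2 with it, and 0.48 in each without it. Unheated WT had replicates 1 and 2 of negative score and each other group a single replicate. The part of this in the heat response was not tested.

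Together the 42 genes made up 9.4, 9.75 and 12.2% of nuclear reads in the 3 WT libraries without heat and 11.6, 11.1 and 9.22% in the heated ones. In unheated atcyp18-2 they made up 10.2, 11.4 and 11.9%, and in heated atcyp18-2 12.4, 9.34 and 12.4%. The groups overlapped, and the lowest value in each group belonged to a library with a negative score. As a share of all reads, chloroplast transcripts included, the members held 3.6, 3.78 and 4% in unheated WT against 3.32, 3.26 and 3.37% in heated WT, and 3.89, 3.98 and 4.09% against 3.52, 3.36 and 3.55% in atcyp18-2. On that denominator the heated libraries of each genotype were all below its unheated ones.

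**Figure D2:**
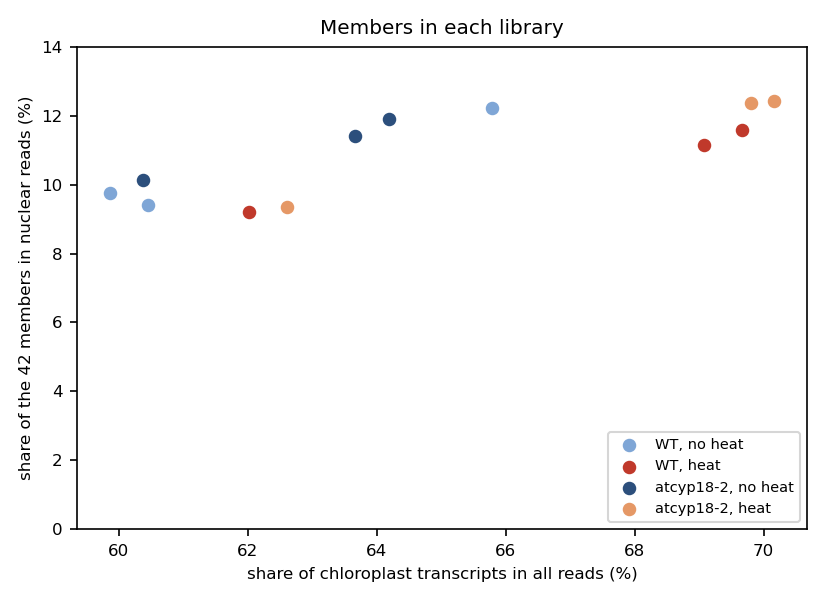
Share of the 42 members in nuclear reads (vertical axis, percent) against the share of chloroplast transcripts in all reads (horizontal axis, percent), 1 point per library, coloured by group. Libraries of each group spread along both axes, and the members' share runs from 9.22% to 12.4%.

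The LHCA proteins form the antenna of photosystem I. LHCA4 (AT3G47470) had the highest mean CPM over the 12 libraries and the highest heat response of the 6. It was at 1084, 1149 and 1599 CPM in WT without heat and 2532, 2548 and 1911 CPM after it, and 1272, 1546 and 1583 CPM in atcyp18-2 without heat and 3477, 2378 and 3299 CPM after it. All heated libraries were above all unheated ones in each genotype, and the log2 fold change was 0.87 ± 0.22 (adjusted p = 0.0118) in WT and 1.06 ± 0.22 (adjusted p = 0.00268) in atcyp18-2. LHCA4 and LHCA1 (AT3G54890) form a pair that binds together beside the core. LHCA1 changed by 0.63 ± 0.19 (adjusted p = 0.0287) on the log2 scale in WT and 0.77 ± 0.19 (adjusted p = 0.00746) in atcyp18-2. LHCA3 (AT1G61520), partner of LHCA2, was at 0.76 ± 0.21 (adjusted p = 0.0206) and 0.93 ± 0.21 (adjusted p = 0.00508). LHCA2 (AT3G61470) was called in atcyp18-2, at 0.66 ± 0.22 (adjusted p = 0.0332), and had 0.56 ± 0.21 (adjusted p = 0.0796) in WT. The 2 low-abundance genes were not called. LHCA6 was at 26.4, 31.6 and 40.6 CPM in WT without heat and 44, 42.9 and 29.8 CPM after it, and 30.8, 40.7 and 39.7 CPM in atcyp18-2 without heat and 41.8, 26.1 and 41.3 CPM after it, with overlapping groups and log2 fold changes of 0.24 ± 0.23 and -0.03 ± 0.23. LHCA5 had 0.38 ± 0.16 and 0.15 ± 0.16. Over the family, the median was 0.59 in WT and 0.71 in atcyp18-2 with TMM scaling, and -0.16 and -0.06 with library totals.

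LHCB1 proteins make up most of the trimeric antenna LHCII of photosystem II. The copy with the highest heat response among all 42 members was LHCB1.5, at 1065, 1059.8 and 1869 CPM in WT without heat and 3959, 3950.0 and 2604 CPM after it, and 1117, 1558 and 1638 CPM in atcyp18-2 without heat and 5034, 3322 and 4994 CPM after it. Its groups did not overlap in either genotype, and its log2 fold change was 1.396 ± 0.28 (adjusted p = 0.00335) in WT and 1.63 ± 0.28 (adjusted p = 0.00084) in atcyp18-2. LHCB1.2 (AT1G29910) changed by 0.98 ± 0.26 (adjusted p = 0.0165) on the log2 scale in WT and 1.02 ± 0.26 (adjusted p = 0.00998) in atcyp18-2. LHCB1.3, the most abundant member of all, was at 4462, 4738 and 8264 CPM in WT without heat and 9629, 8740.0 and 5086 CPM after it, and 5012, 6980.1 and 7484 CPM in atcyp18-2 without heat and 8094, 4891 and 8587 CPM after it. Its heated and unheated libraries overlapped in both genotypes, with log2 fold changes of 0.43 ± 0.32 (adjusted p = 0.373) and 0.15 ± 0.32 (adjusted p = 0.765). LHCB1.4 (AT2G34430) had the lowest response of the 5 in WT. It was at 519, 586 and 1014 CPM in WT without heat and 856, 843 and 562 CPM after it, and 592, 761 and 827 CPM in atcyp18-2 without heat and 998, 630.4 and 1044 CPM after it, again with overlapping groups, and had 0.09 ± 0.28 (adjusted p = 0.844) and 0.29 ± 0.28 (adjusted p = 0.464). LHCB1.1 was at 0.52 ± 0.26 (adjusted p = 0.176) and 0.49 ± 0.26 (adjusted p = 0.181). With TMM scaling the family's median was 0.52 in WT and 0.49 in atcyp18-2, and with library totals -0.23 and -0.29.

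Within a library, the make-up of LHCB1 reads needs no scaling between libraries, and it varied far less than the CPM. LHCB1.5 took 11.9 ± 0.343% (SD, n = 3) of the reads of the 5 copies in unheated WT and 20.5 ± 0.984% in heated WT, and 11.7 ± 0.135% and 24.6 ± 0.845% in atcyp18-2. The share of LHCB1.2 was 7.17 ± 0.292% and 9.19 ± 0.598% in WT without and with heat, and 7.13 ± 0.0412% and 9.83 ± 0.428% in atcyp18-2. LHCB1.3 went the other way, from 52 ± 0.783% to 44.8 ± 2.76% in WT and from 52.7 ± 0.762% to 39.3 ± 1.73% in atcyp18-2. LHCB1.4 was at 6.28 ± 0.276% and 4.4 ± 0.212% in WT, and at 5.93 ± 0.176% and 4.89 ± 0.0698% in atcyp18-2. For these 4 copies, heated and unheated libraries did not overlap in either genotype. For LHCB1.1, at 22.7 ± 0.787% and 21.1 ± 1% in WT, they overlapped in WT, and in atcyp18-2 they all but touched, at 22.1 to 23.3% and 21 to 22.1%. Reads that fit several copies could have been given to any of them or to none, since the counting rule for such reads is not given in the sources used here, so shares of copies with long identical stretches are uncertain. The head-to-head pair LHCB1.5 and LHCB1.4 separated in the same way, and its ratio of reads was 2.05, 1.81 and 1.84 in unheated WT and 4.62, 4.69 and 4.63 in heated WT, and 1.89, 2.05 and 1.98 and 5.05, 5.27 and 4.78 in atcyp18-2.

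**Figure D3:**
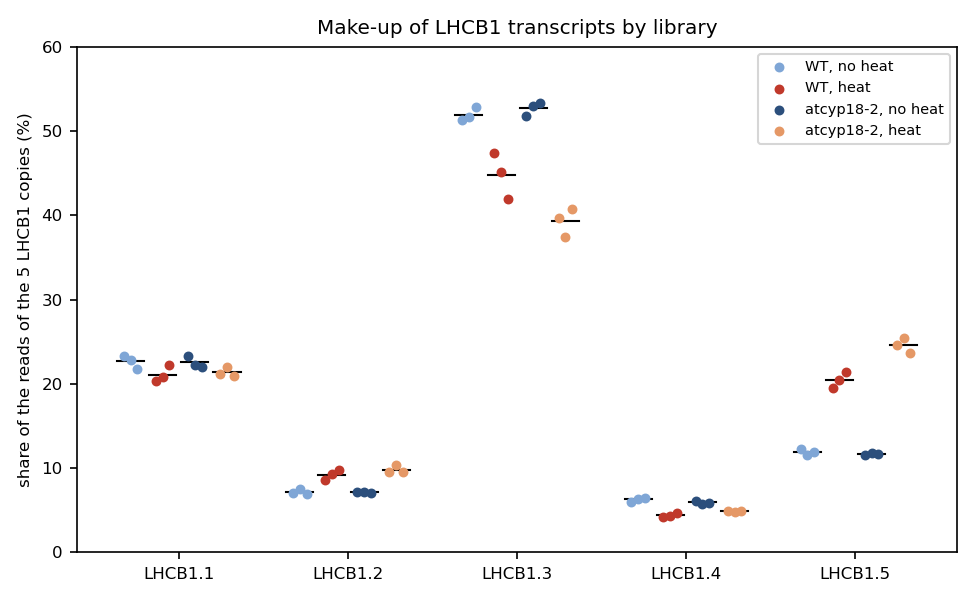
Share of each LHCB1 copy in the reads of the 5 copies (vertical axis, percent), 1 point per library and a bar at the mean of 3, by group. LHCB1.5 goes from 11.9% in WT without heat to 20.5% in heated WT and 24.6% in heated atcyp18-2, while LHCB1.3 takes a smaller share after heat in both genotypes.

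The 250 bases upstream of LHCB1.4 (chr2:14524357-14524606, plus strand) and LHCB1.5 (chr2:14523569-14523818, minus strand) are shown as the windows nearest to the starts of a pair whose ratio shifted. Matches of 6 short motifs known from photosynthesis and heat promoters, on either strand, are in capitals: the CCAAT box and, in LHCB1.4, the CCA1-binding site AAAAATCT 11 bases before the start.

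LHCB1.4: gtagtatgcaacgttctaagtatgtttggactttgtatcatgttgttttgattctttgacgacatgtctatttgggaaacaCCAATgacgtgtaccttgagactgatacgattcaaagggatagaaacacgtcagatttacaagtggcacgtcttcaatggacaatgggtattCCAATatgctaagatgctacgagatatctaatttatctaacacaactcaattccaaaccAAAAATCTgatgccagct
LHCB1.5: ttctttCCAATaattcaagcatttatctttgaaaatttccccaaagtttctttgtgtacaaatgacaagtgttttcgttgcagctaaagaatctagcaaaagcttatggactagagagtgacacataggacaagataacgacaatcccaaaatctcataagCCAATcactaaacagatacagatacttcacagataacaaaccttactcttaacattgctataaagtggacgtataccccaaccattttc

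LHCB2 and LHCB3 are the other proteins of LHCII trimers. LHCB2.1 (AT2G05100), which had the highest mean CPM of the 4 over the 12 libraries though LHCB3 was higher without heat, was at 702, 660.4 and 1162 CPM in WT without heat and 1666, 1669 and 1103 CPM after it, and 736, 981 and 1102 CPM in atcyp18-2 without heat and 2085, 1361 and 1966 CPM after it. The WT groups overlapped through replicate 3 of each, whereas those of atcyp18-2 did not, and the log2 fold changes were 0.81 ± 0.27 (adjusted p = 0.0447) and 0.94 ± 0.27 (adjusted p = 0.0179). LHCB2.2 (AT2G05070), with a coding sequence 96.6% identical to that of LHCB2.1, was at 559, 579 and 830.1 CPM in WT without heat and 1303, 1264 and 974 CPM after it, and 657, 712 and 829 CPM in atcyp18-2 without heat and 1579, 1149 and 1441 CPM after it. All heated libraries of each genotype were above all unheated ones, with 0.85 ± 0.21 (adjusted p = 0.0102) and 0.92 ± 0.21 (adjusted p = 0.00441). Reads from identical stretches could have been given to either of these 2 copies, so their values are uncertain apart. LHCB2.3 (AT3G27690), 76.4% identical to LHCB2.1, was at 201, 197 and 290.1 CPM in WT without heat and 319, 287 and 199 CPM after it, and 201, 279.7 and 306 CPM in atcyp18-2 without heat and 236, 166 and 247 CPM after it. Its groups overlapped in both genotypes and it was not called, with 0.23 ± 0.24 (adjusted p = 0.533) and -0.28 ± 0.24 (adjusted p = 0.411). The ratio of LHCB2.3 to LHCB2.2 reads was 0.361, 0.34 and 0.349 in unheated and 0.245, 0.227 and 0.205 in heated WT, and 0.306, 0.393 and 0.368 and 0.149, 0.145 and 0.171 in atcyp18-2, without overlap. LHCB3 (AT5G54270) was called in atcyp18-2, at 0.47 ± 0.17 (adjusted p = 0.0489), and had 0.37 ± 0.17 (adjusted p = 0.14) in WT. The family had a median of 0.59 in WT and 0.70 in atcyp18-2, which turned to -0.16 and -0.07 with library totals.

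LHCB4, LHCB5 and LHCB6 are the monomeric antenna proteins between LHCII and the core of photosystem II. LHCB5 (AT4G10340) had the highest mean CPM of them over the 12 libraries and the lowest heat response in WT, at 1231, 1326 and 1875 CPM in WT without heat and 2166, 1945 and 1426 CPM after it, and 1380.2, 1784 and 1769.9 CPM in atcyp18-2 without heat and 2244, 1509.9 and 2231 CPM after it. Heated and unheated libraries overlapped in both genotypes, with log2 fold changes of 0.32 ± 0.23 (adjusted p = 0.357) and 0.28 ± 0.23 (adjusted p = 0.399). LHCB6 (AT1G15820) had the highest response, at 619, 694 and 1068 CPM in WT without heat and 1392, 1309 and 935 CPM after it, and 718, 947 and 955 CPM in atcyp18-2 without heat and 1622, 1103 and 1519 CPM after it. It was called in atcyp18-2, at 0.70 ± 0.25 (adjusted p = 0.0464), where the groups did not overlap, and had 0.61 ± 0.25 (adjusted p = 0.0927) in WT, where they did. LHCB4.1 (AT5G01530), LHCB4.2 (AT3G08940) and LHCB4.3 were not called in either genotype, with 0.49 ± 0.30, 0.59 ± 0.27 and 0.44 ± 0.20 in WT and 0.41 ± 0.30, 0.53 ± 0.26 and 0.19 ± 0.20 in atcyp18-2. In WT and atcyp18-2 the family's medians were 0.49 and 0.41 with TMM scaling and -0.27 and -0.37 with library totals.

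PSAD and PSAE lie on the stromal face of photosystem I, where ferredoxin binds, and each has 2 copies. PSAD2 was at 112, 106 and 109 CPM in WT without heat and 196, 191 and 198 CPM after it, and 104, 109 and 129.9 CPM in atcyp18-2 without heat and 303, 274 and 241 CPM after it. Heated libraries were all above unheated ones in each genotype, with log2 fold changes of 0.84 ± 0.14 (adjusted p = 0.000931) and 1.25 ± 0.14 (adjusted p = 2.54e-05). PSAD1 (AT4G02770) overlapped in WT and was called in atcyp18-2, with 0.37 ± 0.19 (adjusted p = 0.187) and 0.54 ± 0.19 (adjusted p = 0.046). The ratio of PSAD2 to PSAD1 reads was 0.725, 0.701 and 0.528 in unheated and 0.805, 0.829 and 1.06 in heated WT, and 0.697, 0.5 and 0.64 and 1.06, 1.15 and 0.794 in atcyp18-2, without overlap in either. PSAE1, with the highest mean CPM of the 4, was at 348, 354 and 348 CPM in WT without heat and 459.8, 423 and 401 CPM after it, and 379, 385 and 395 CPM in atcyp18-2 without heat and 512, 446 and 474 CPM after it. Its groups did not overlap, but it was not called, with 0.29 ± 0.13 (adjusted p = 0.135) and 0.31 ± 0.13 (adjusted p = 0.0958). PSAE2, the lowest response of the 4 in WT, was at 78.3, 73.3 and 63.5 CPM in WT without heat and 83.9, 72.4 and 94.1 CPM after it, and 81.5, 63.6 and 69.2 CPM in atcyp18-2 without heat and 96.4, 109 and 93.3 CPM after it. It overlapped in WT, at 0.22 ± 0.15 (adjusted p = 0.334), and was called in atcyp18-2, at 0.48 ± 0.15 (adjusted p = 0.0315). Over the family, the median was 0.33 in WT and 0.51 in atcyp18-2 with TMM scaling, and -0.43 and -0.25 with library totals.

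The upstream windows of the PSAD pair are shown for the same reason as those of the LHCB1 pair, from PSAD1 (chr4:1230165-1230414, minus strand) and PSAD2 (chr1:754263-754512, minus strand). Capitals mark the I-box GATAAG in PSAD1 and a CCAAT box in each, read on the opposite strand as ATTGG in PSAD2.

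PSAD1: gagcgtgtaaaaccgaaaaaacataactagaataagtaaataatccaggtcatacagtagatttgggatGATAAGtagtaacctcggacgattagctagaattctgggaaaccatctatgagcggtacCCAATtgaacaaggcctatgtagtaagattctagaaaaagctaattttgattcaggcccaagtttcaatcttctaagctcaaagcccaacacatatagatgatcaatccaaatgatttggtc
PSAD2: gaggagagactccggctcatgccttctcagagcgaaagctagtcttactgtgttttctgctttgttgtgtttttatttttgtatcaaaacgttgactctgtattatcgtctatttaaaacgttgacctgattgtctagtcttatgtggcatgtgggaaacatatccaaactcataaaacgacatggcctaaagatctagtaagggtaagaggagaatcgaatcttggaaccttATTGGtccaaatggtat

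Of the other 8 nuclear subunits of photosystem I, PSAO (AT1G08380), a subunit at the side where mobile LHCII docks, was the only one called with TMM scaling, with 0.53 ± 0.16 (adjusted p = 0.0337) in WT and 0.51 ± 0.16 (adjusted p = 0.0321) in atcyp18-2. PSAL (AT4G12800), with the highest mean CPM of them, was at 419.7, 402 and 695 CPM in WT without heat and 1046, 929.9 and 588 CPM after it, and 428, 635 and 677 CPM in atcyp18-2 without heat and 1167, 681 and 1018 CPM after it. It overlapped in WT and not in atcyp18-2, with 0.76 ± 0.29 (adjusted p = 0.0816) and 0.72 ± 0.29 (adjusted p = 0.0792). PSAG had the highest log2 fold change in WT with a wide error, at 0.81 ± 0.55 (adjusted p = 0.317), and 0.64 ± 0.54 (adjusted p = 0.402) in atcyp18-2. Its libraries were at 87, 69 and 227 CPM in WT without heat and 294, 269 and 107 CPM after it, and 70.3, 229 and 182 CPM in atcyp18-2 without heat and 281, 128 and 343 CPM after it, and the low ones are those with a negative library score. PSAN, a lumenal subunit, was at 321, 338 and 284 CPM in WT without heat and 285, 283 and 358 CPM after it, and 347, 336 and 329 CPM in atcyp18-2 without heat and 366, 439.9 and 356 CPM after it. It had the lowest response of all 42 members in WT, at -0.03 ± 0.15 (adjusted p = 0.925), with overlapping groups, and 0.20 ± 0.15 (adjusted p = 0.349) in atcyp18-2. PSAF (AT1G31330), where plastocyanin docks, had 0.59 ± 0.24 and 0.64 ± 0.24, and PSAH1 (AT3G16140) and PSAH2 had 0.43 ± 0.31 and 0.25 ± 0.13 in WT and 0.38 ± 0.31 and 0.11 ± 0.13 in atcyp18-2. PSAK was at 0.22 ± 0.14 and 0.35 ± 0.14. With TMM scaling the family's median was 0.48 in WT and 0.44 in atcyp18-2, and with library totals -0.28 and -0.33.

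PSBO, PSBP and PSBQ shield the manganese cluster that splits water, and PSBR helps to hold them. PSBR had the highest mean CPM of these 6 over the 12 libraries, all but level with PSBO1, which was higher without heat. PSBR was at 847, 892 and 1099.8 CPM in WT without heat and 1563, 1474 and 1168 CPM after it, and 953, 1047 and 1123 CPM in atcyp18-2 without heat and 1809.9, 1295 and 1620.5 CPM after it. Its groups did not overlap, and it had 0.57 ± 0.19 (adjusted p = 0.0439) in WT and 0.60 ± 0.19 (adjusted p = 0.0273) in atcyp18-2. PSBO2 had the highest response, at 246, 252 and 244 CPM in WT without heat and 377, 373 and 388 CPM after it, and 274, 273 and 264 CPM in atcyp18-2 without heat and 409, 440.0 and 416 CPM after it. Its groups did not overlap in either genotype, with 0.62 ± 0.12 (adjusted p = 0.00321) and 0.64 ± 0.12 (adjusted p = 0.00178). PSBO1 (AT5G66570), the copy with more reads, overlapped and was not called, with 0.20 ± 0.17 (adjusted p = 0.419) and 0.23 ± 0.17 (adjusted p = 0.331). The ratio of PSBO2 to PSBO1 reads was 0.245, 0.239 and 0.192 in unheated and 0.264, 0.287 and 0.353 in heated WT, and 0.244, 0.226 and 0.215 and 0.275, 0.362 and 0.284 in atcyp18-2, without overlap. PSBQ1 (AT4G21280) was called in both, with 0.48 ± 0.16 (adjusted p = 0.0396) and 0.62 ± 0.16 (adjusted p = 0.00856), whereas PSBQ2 had 0.16 ± 0.19 and 0.23 ± 0.19. The lowest response was that of PSBP1, at 624, 647 and 522 CPM in WT without heat and 622, 582 and 736 CPM after it, and 698, 627 and 613 CPM in atcyp18-2 without heat and 603, 789 and 666 CPM after it. Its groups overlapped, with 0.11 ± 0.17 and 0.09 ± 0.17. The family had a median of 0.34 in WT and 0.41 in atcyp18-2, which turned to -0.42 and -0.34 with library totals.

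The 4 other nuclear subunits of photosystem II were not called in either genotype. PSBW (AT2G30570), with the highest mean CPM over the 12 libraries though PSBX was higher without heat, was at 305, 313 and 434 CPM in WT without heat and 559, 512 and 403 CPM after it, and 347, 448 and 461 CPM in atcyp18-2 without heat and 665, 463 and 614 CPM after it, with 0.49 ± 0.21 (adjusted p = 0.111) and 0.47 ± 0.21 (adjusted p = 0.102). It overlapped in WT and not in atcyp18-2. PSBY (AT1G67740) had the highest log2 fold change of the 4 in WT, at 0.61 ± 0.33 (adjusted p = 0.204), and 0.46 ± 0.33 (adjusted p = 0.313) in atcyp18-2. Its values were 73.6, 57.3 and 114 CPM in WT without heat and 143, 137 and 93.3 CPM after it, and 62.7, 132 and 114 CPM in atcyp18-2 without heat and 152, 93 and 179 CPM after it, with overlapping groups. PSBX (AT2G06520) had the lowest one, with 337, 317 and 475 CPM in WT without heat and 479.6, 437 and 345 CPM after it, and 347, 463 and 459.9 CPM in atcyp18-2 without heat and 537, 398 and 518 CPM after it, overlapping groups, and 0.16 ± 0.21 (adjusted p = 0.62) and 0.20 ± 0.21 (adjusted p = 0.514). PSBS (AT1G44575), which triggers the harmless dissipation of excess light energy as heat, had 0.22 ± 0.21 (adjusted p = 0.501) and -0.07 ± 0.21 (adjusted p = 0.84). In WT and atcyp18-2 the family's medians were 0.35 and 0.33 with TMM scaling and -0.41 and -0.44 with library totals.

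**Figure D4:**
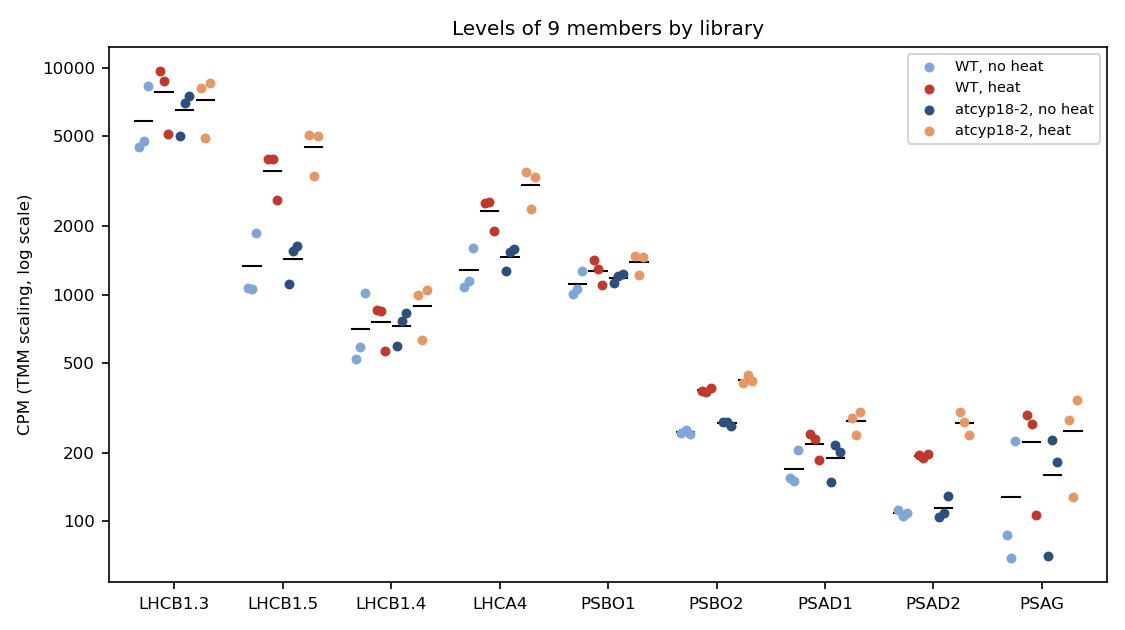
CPM with TMM scaling (logarithmic vertical axis) of 9 members in each of the 12 libraries, with a bar at the mean of each group of 3. LHCB1.5, LHCA4, PSBO2 and PSAD2 are above their unheated libraries in all heated ones in both genotypes, while LHCB1.3, LHCB1.4, PSBO1 and PSAG overlap, and PSAD1 overlaps in WT; with library totals only LHCB1.5 in WT, and LHCB1.5 and LHCA4 in atcyp18-2, were called higher.

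Read ratios between copies of the same family were formed for 21 pairs. In 12 pairs the 3 heated libraries lay on the same side of the 3 unheated ones, without overlap, in both genotypes. These were 8 pairs of LHCB1 copies, the 2 pairs of LHCB2.3 with the other LHCB2 genes, PSAD2 over PSAD1 and PSBO2 over PSBO1. The ratio of LHCB1.4 to LHCB1.3 went opposite ways. In WT it was 0.116 to 0.124 without heat and 0.0889 to 0.111 after it, and in atcyp18-2 0.109 to 0.118 and 0.122 to 0.129. The ratios PSAE2 over PSAE1, PSAH2 over PSAH1, PSBQ2 over PSBQ1 and LHCB2.2 over LHCB2.1 overlapped between heated and unheated libraries in both. PSBQ2 over PSBQ1 spanned 0.718 to 1.16 in unheated and 0.651 to 1.05 in heated WT, with the high values in libraries of negative score. The ratios within a family share their copies and libraries and are given as a description, with no test.

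**Figure D5:**
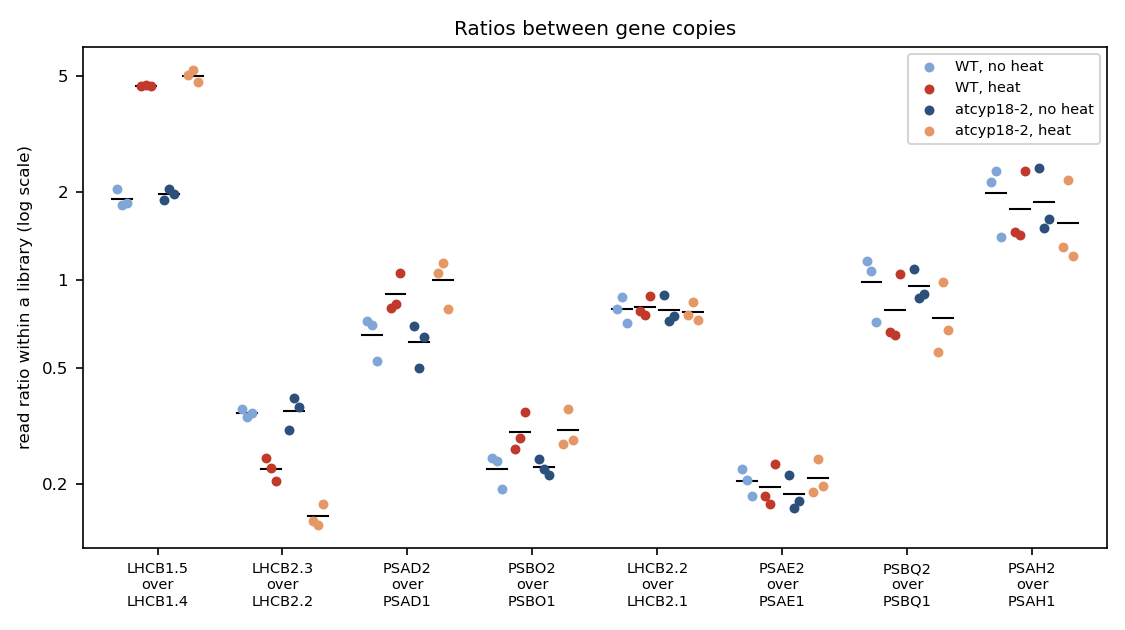
Ratio of the reads of 2 copies within a library (logarithmic vertical axis) for 8 pairs, 1 point per library with a bar at the mean of 3, by group. The 4 pairs on the left separate heated from unheated libraries in both genotypes, LHCB1.5 over LHCB1.4 lying at 1.81 to 2.05 without heat and 4.62 to 4.69 after it in WT, and the 4 on the right overlap.

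No member was called between the genotypes in edgeR's test with TMM scaling. Without heat, 0 of 42 were called, beside 0.024% of all genes (4). At an unadjusted p below 0.05 there was 1 member, beside 396 of all 16636 genes. That member was LHCB4.3, the LHCB4 copy with the fewest reads, at 0.47 ± 0.20. After heat, 0 were called, beside 0.222% of all genes (37). At an unadjusted p below 0.05 there was 1 member, PSAD2, beside 1753 of all genes. PSAD2 was 0.48 ± 0.14 higher on the log2 scale in heated atcyp18-2 than in heated WT, with all 3 mutant libraries above all 3 WT ones (adjusted p = 0.211). The members' medians were 0.15 without heat and 0.18 after heat, beside 0.006 and 0.008 over all genes, and DESeq2 called 0 members in each. Of the 42 log2 fold changes, 41 were above 0 without heat and 36 after it. Most members vary together between libraries, so these are not separate observations. Replicates 1 and 2 of unheated WT had a negative library score, and of unheated atcyp18-2 only replicate 1. The part of this in the medians was not tested.

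The difference of the heat response between the genotypes was called for 0 members, beside 0% of all genes in edgeR, with 0 members and 912 of all genes at an unadjusted p below 0.05. DESeq2 called 0 members and 20 of all genes. The members' median difference was 0.03. For PSAD2 it was 0.41 with a 95% confidence interval of -0.02 to 0.84, for LHCB2.3 -0.51 with an interval of -1.24 to 0.23, and for LHCB1.5 0.23 with an interval of -0.62 to 1.08. Each interval includes 0 and also changes well away from it, so the data do not show that the genotypes respond alike. With the library score as a covariate, 1 member was called higher without heat, LHCB4.3, at 0.46 ± 0.10 (adjusted p = 0.0375), beside 106 of all genes in either direction. After heat, 11 were higher and 1 lower on that model, beside 1341 of all genes in either direction. Among them were PSAD2 at 0.48 ± 0.09 (adjusted p = 0.00239), LHCA4 at 0.38 ± 0.07 (adjusted p = 0.00104) and LHCB2.3, the lower one, at -0.31 ± 0.08 (adjusted p = 0.0185). LHCB2.3 was also the sole member with a called difference of the heat response, at -0.50 ± 0.11 (adjusted p = 0.0198), beside 344 of all genes. The score was itself computed from the differences of these libraries within groups, so the errors and p-values of this model may be too small. For the same reason the model does not correct differences between groups. For LHCA4 after heat the error was 0.22 without the score and 0.07 with it.

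In other lists of the photosynthetic apparatus, a pair of genes had higher log2 fold changes than any of the 42 members, while the median of every list was below that of the members in both genotypes. ELIP1 (AT3G22840), an early light-induced antenna relative thought to bind free chlorophyll, had log2 fold changes of 3.11 ± 0.28 (adjusted p = 3.95e-06) in WT and 2.19 ± 0.27 (adjusted p = 5.46e-05) in atcyp18-2. FD1 (AT1G10960), a leaf ferredoxin of lower abundance than FD2 (AT1G60950), had 2.25 ± 0.18 (adjusted p = 1.01e-06) and 2.38 ± 0.18 (adjusted p = 4.77e-07), while FD2 had 0.23 ± 0.27 and -0.08 ± 0.27. ELIP1 and FD1 were called higher with library totals too. Of the 8 antenna-like stress genes, 1 was called higher and 1 lower in WT, the latter LIL3.1 (AT4G17600), with -0.61 ± 0.13 (adjusted p = 0.00566). In atcyp18-2, 1 was higher and 2 lower, LIL3.1 with -0.83 ± 0.14 (adjusted p = 0.000518) and LIL3.2 (AT5G47110) with -0.87 ± 0.19 (adjusted p = 0.00417). Both LIL3 proteins hold the enzymes of late chlorophyll synthesis at the membrane. Of 10 electron transport genes, FD1 was the sole one called by edgeR with TMM scaling in either genotype. DESeq2 also called 1 lower in atcyp18-2, and with library totals 5 were lower in WT and 6 in atcyp18-2.

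Of 16 genes of chlorophyll synthesis, 2 were called higher and 1 lower in WT, and 2 higher and 7 lower in atcyp18-2, by edgeR. DESeq2 called 2 higher and 5 lower in WT and 2 higher and 9 lower in atcyp18-2, so the number of lower genes in WT depends on the tool. Of all genes edgeR called 13.2% higher and 10.3% lower in WT, and 16.9% and 15.3% in atcyp18-2. The higher ones were CRD1 (AT3G56940), a cyclase that builds the fifth ring of chlorophyll, at 0.60 ± 0.17 (adjusted p = 0.0229) and 0.63 ± 0.17 (adjusted p = 0.0129), and PORB (AT4G27440), a light-dependent protochlorophyllide reductase, at 0.59 ± 0.14 (adjusted p = 0.00959) and 0.97 ± 0.14 (adjusted p = 0.000225). CHLI1 (AT4G18480), a subunit of magnesium chelatase, was lower in both, at -0.65 ± 0.13 (adjusted p = 0.00346) and -0.99 ± 0.13 (adjusted p = 0.00011). DVR (AT5G18660), a divinyl reductase, was lower in atcyp18-2, at -0.83 ± 0.23 (adjusted p = 0.0157). With library totals, 0 of the 16 were called higher, and 12 were lower in WT and 13 in atcyp18-2. Of 5 fitted genes of chlorophyll breakdown (of 6), PPH (AT5G13800), which takes the phytol tail off pheophytin, was called by edgeR in both genotypes, at 0.61 ± 0.18 (adjusted p = 0.0287) and 0.76 ± 0.18 (adjusted p = 0.00696). DESeq2 called 0 of the 5 in WT and 1 higher in atcyp18-2. With library totals 0 of the 5 were called in either genotype, and PPH was at -0.18 and 0.01.

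Among 5 genes that deliver LHC proteins to the membrane, CPSRP43 (AT2G47450), their chaperone in the stroma, was called lower in WT, at -0.81 ± 0.20 (adjusted p = 0.0123), and had -0.54 ± 0.20 (adjusted p = 0.061) in atcyp18-2. In atcyp18-2 edgeR called 0 of the 5 while DESeq2 called 1 lower, as many as had an unadjusted p below 0.05. Of 10 genes of photosystem II repair and assembly, 0 were called in WT by edgeR (2 at an unadjusted p below 0.05, and 1 lower by DESeq2), and DEG5 (AT4G18370), a lumenal protease, was lower in atcyp18-2, at -0.51 ± 0.16 (adjusted p = 0.031), where DESeq2 called 3 lower. With library totals 6 of the 10 were lower in WT and 7 in atcyp18-2. Of 3 nuclear subunits of the ATP synthase, ATPC1 (AT4G04640) was lower in atcyp18-2, at -0.52 ± 0.14 (adjusted p = 0.0104). DESeq2 called 2 lower in atcyp18-2. In WT edgeR called 0 of them and DESeq2 1, as many as had an unadjusted p below 0.05. Of 3 LHC kinases and phosphatases, 0 were called by edgeR or DESeq2, and 1 had an unadjusted p below 0.05, in WT.

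The 250 bases upstream of each start were searched on both strands for 6 motifs, in all 42 members and in 27443 genes. The CCAAT box (CCAAT) occurred in 27 of the 42 members, 64.3%, beside 46% of all windows, among them all 5 LHCB1 genes. The I-box (GATAAG) occurred in 9, 21.4% beside 12.3%, and the G-box (CACGTG) in 8, 19% beside 6.49%. The CCA1-binding site (AAAAATCT) occurred in 5, 11.9% beside 6.69%, and the evening element (AAAATATCT) in 1, LHCA5, 2.38% beside 2.36%. A pair of heat shock element units (GAANNTTC) was in 1 member, LHCB5, 2.38% beside 9.55%. A match is a description of the sequence, and no match says only that these letters are not in this window.

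In the authors' deposited table, log2 fold changes of heat in WT for the members' transcripts ran from -0.10 to 1.303, with 40 of 42 above 0. The authors' deposited table gave -0.40 to 1.51 in atcyp18-2, with 37 above 0. The authors' separate lists of changed genes held 1 member for heat in WT, LHCB1.5, with a log2 fold change of 1.39 in the list. The list for heat in atcyp18-2 held 4, LHCB1.5 at 1.63, PSAD2 at 1.25, LHCA4 at 1.05 and LHCB1.2 at 1.01. For the same 4 genes the deposited table gave 1.51, 1.14, 0.94 and 0.90. In these lists the smallest change was 1 in absolute log2 terms. The highest adjusted p given by the authors was 0.00996 for heat in WT and 0.00998 in atcyp18-2, which is stricter than the limit used here. The authors' lists of genotype differences held 0 members.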

How the data were processed

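RNA-seq was carried out on 12 leaf samples, grouped by the genotype and treatment in their labels. The authors deposited whole-number counts per transcript marked as raw, per the file headers. The submitters' processing notes list HTSeq and DESeq, with no version and no role. Aligner and genome build: not given in the sources used here. The lowest deposited count was 1 and 0 rows were at 1 in all libraries, while 1573 rows were at 2 in 1 library and at 1 in the others, so 1 read appears to have been added to every value; read numbers, shares and ratios printed here have it subtracted, and CPM includes it. The authors also deposited log2 fold changes, and lists of changed genes with adjusted p-values, which were used only where named.

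Each of the 23174 genes was represented by its annotated transcript of highest total, or by its highest assembled one where none was annotated (the design had assumed counts per gene). edgeR 4.0.16 (quasi-likelihood test, TMM scaling, filterByExpr; R 4.3.3) was run on the counts in 1 fit of the 12 libraries with 8 residual degrees of freedom, and p-values were adjusted by the Benjamini-Hochberg method over all 16636 genes. The 5 contrasts were heat in each genotype, genotype in unheated and in heated leaves, and the difference between both heat responses. Errors of log2 fold changes are standard errors and others are SDs. Depth limits precision, and intervals cover the spread between these samples. DESeq2 1.42.0, other scalings, transcripts, filters and left-out libraries were the alternatives. The test was tested on simulated data. Within groups no pair of libraries agreed within sampling noise. Counting by strand is not stated, so overlapping and antisense genes cannot be told apart, and near-identical copies are uncertain.

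All members are accounted for. Values in every library are given for the member of each family with the highest mean CPM over the 12 libraries and for those with the highest and lowest log2 fold change of heat in WT, and every member called in a heat comparison is named with its fold change. Of other lists, counts and at most 2 called rises and 2 called falls per comparison are named. The members and lists were chosen with earlier results of these data known. Sequences, positions and lengths come from RefSeq, TAIR10.1, matched by locus for all 42 members.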

Additional observations from a re-analysis of the deposited data

Results flagged for a closer look

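The ratio of LHCB1.4 to LHCB1.3 reads stands out because the heated libraries lay on opposite sides of the unheated ones in the 2 genotypes. The mean ratio of the 3 heated libraries was 0.816 times that of the 3 unheated ones in WT, where all heated libraries were below all unheated ones. It was 1.11 times the unheated mean in atcyp18-2, where all heated libraries were above. The difference between the genotypes was not tested, and it is 1 of 21 ratios that were examined. The coding sequences of these copies are 86.8% identical, with no identical run longer than 35 bases, and the part of reads that fit several copies in the ratio was not tested.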

How the results depend on the processing

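Of the scalings, library totals reversed directions. The members' median heat response became -0.27 in WT and -0.29 in atcyp18-2, with 1 and 2 members called higher and 14 and 15 lower, and 8299 and 8419 genes called in all. Among members called in either genotype, the log2 fold change in WT became -0.12 for LHCA1, -0.20 for LHCA2, -0.39 for LHCB3, -0.14 for LHCB6, -0.39 for PSAD1, -0.53 for PSAE2, -0.22 for PSAO, -0.13 for PSBO2, -0.28 for PSBQ1 and -0.20 for PSBR. In atcyp18-2 it became -0.11 for LHCA2, -0.30 for LHCB3, -0.074 for LHCB6, -0.21 for PSAD1, -0.28 for PSAE2, -0.25 for PSAO, -0.11 for PSBO2, -0.15 for PSBQ1 and -0.18 for PSBR. With library totals 0 genes were called between genotypes without heat and 6 after heat. Scaling over nuclear genes, RLE factors, another transcript per gene and subtracting the added read left 12 members called in WT and 14 to 17 in atcyp18-2; with scaling over nuclear genes 7 genes were called between genotypes without heat.

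With no low-count filter 6 members were called higher in WT and 10 in atcyp18-2, and 24 genes differed between genotypes after heat. With only the groups compared in the fit, 6 members were called in WT, and 1 gene differed between genotypes both without and after heat. DESeq2 called 11 members in atcyp18-2, and 21, 190 and 20 genes for the genotype without heat, after heat and for the difference of the responses. The library score as a covariate gave 37 members higher in WT, 34 higher and 1 lower in atcyp18-2, and 7475 and 8635 genes in all; between genotypes it gave 1 member higher without heat, 11 higher and 1 lower after heat and 1 lower for the difference, of 106, 1341 and 344 genes. The cause of these shifts was not tested.

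The correlations of same-numbered deviations ran from -0.65 to 0.51, with no steady sign. Differently numbered libraries were not compared, so whether the replicate numbers pair the samples was not decided. With the replicate block, 7 members were called higher in WT and 10 in atcyp18-2, and 1 and 3 genes differed between genotypes without and after heat.

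Leaving out 1 library at a time gave 4 to 19 members higher in WT and 9 to 18 in atcyp18-2, with 0 to 0 lower and medians of 0.35 to 0.66 and 0.35 to 0.61. All genes called ran from 2648 to 4114 and from 4219 to 5656 for heat, from 0 to 10 and from 2 to 39 for the genotypes, and from 0 to 0 for the difference. Members' medians between genotypes ran from 0.08 to 0.37 without heat, 0.08 to 0.33 after it and -0.17 to 0.15 for the difference, with 0 called. The mean share of nuclear reads ran from 9.58 to 11.0% in unheated and 10.2 to 11.4% in heated WT, and from 10.8 to 11.7% and 10.9 to 12.4% in atcyp18-2. With all reads as the denominator the shares were 3.79, 3.32, 3.98 and 3.48% for unheated and heated WT and unheated and heated atcyp18-2, and against nuclear reads of other genes they were 11.9% in heated WT and 12.6% in the unheated mutant.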
